A study of Homo sapiens with 21 samples.

Results

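The G1 cyclins, their kinases and the RB proteins are 10 genes that control whether a cell leaves G1 and starts to copy its DNA. They were taken by symbol from the 60728 gene identifiers of an RNA-Seq table: the D-type cyclins CCND1, CCND2 and CCND3, the E-type cyclins CCNE1 and CCNE2, the kinases CDK2, CDK4 and CDK6, and the pocket proteins RB1 and RBL1. The table covers 21 libraries of SK-N-BE(2), an established human neuroblastoma cell line with amplified MYCN, in 7 conditions of 3 libraries each. All cells were transduced with lentivirus, and RNA was extracted after 72 h. The label of Control names no target gene, and the authors describe the control of this RNA-Seq as non-silencing. Conditions shARID1A.2 and shARID1A.4 are labelled as ARID1A silencing, shARID1B.2 and shARID1B.3 as ARID1B silencing, and shARID1A/B.2.3 and shARID1A/B.4.2 as silencing of both. Each shRNA, a short hairpin RNA, is meant to trigger degradation of 1 target transcript. ARID1A and ARID1B are alternative subunits of the BAF chromatin remodelling complex. Of the 10 genes, 9 passed the filter on low values and were tested, while CCND2 did not.

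D-type cyclins are made in response to mitogens and bind CDK4 or CDK6, and these kinases start the phosphorylation of the RB proteins. RB1 and RBL1, while unphosphorylated, bind E2F transcription factors and hold back the genes needed for S phase. The E-type cyclins, which are themselves E2F targets, then activate CDK2, which completes RB phosphorylation and promotes the firing of replication origins. In neuroblastoma, CCND1 is known for high expression, and CDK4 is a known target of MYCN.

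The targeted genes were read first, as they check the labels. In Control, ARID1A had 6097, 6374 and 6463 normalised reads, meaning reads divided by the size factor of the library, and ARID1B had 5793, 5804 and 5791. In the libraries labelled shARID1A both were low: ARID1A stood at 34% of the Control mean in shARID1A.2 and 35.5% in shARID1A.4, and ARID1B at 38.7% and 53.5%. In the libraries labelled shARID1B it was ARID1A that was low, at 30.4% in shARID1B.2 and 39.3% in shARID1B.3, whereas ARID1B stood at 86.3% and 105%. In the libraries labelled shARID1A/B it was ARID1B that was low, at 44.8% in shARID1A/B.2.3 and 32.9% in shARID1A/B.4.2, whereas ARID1A stood at 89.7% and 86.2%. The targeted genes therefore did not match the label shARID1B or the label shARID1A/B, and both were low where the label names ARID1A alone. Labels are used below as written, always for the libraries that carry them.

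**Figure D1:**
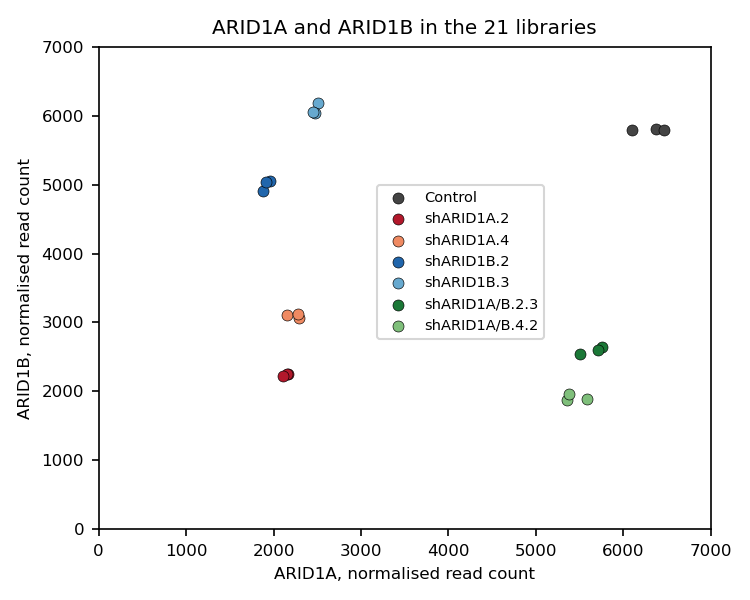
ARID1A (x axis) against ARID1B (y axis) as normalised read counts, 1 point per library and 1 colour per labelled condition, 3 libraries each. Control lies at the upper right, and the libraries labelled shARID1A are low on both axes. Those labelled shARID1B are low mainly for ARID1A, and those labelled shARID1A/B are low mainly for ARID1B.

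Libraries held 27954334 to 41077638 reads. The sympathoadrenergic neuroblastoma markers PHOX2A, HAND2, GATA3, ISL1, TH, DBH and MYCN were above 0 in all 7 conditions, and their summed level was 162914 to 167126 normalised reads in Control, 119191 to 125105 in shARID1A.2, 449834 to 467218 in shARID1A.4, 113538 to 118702 in shARID1B.2, 189930.0 to 209851 in shARID1B.3, 254382 to 260144 in shARID1A/B.2.3 and 113038 to 115747 in shARID1A/B.4.2. The sum was thus below Control in shARID1A.2, shARID1B.2 and shARID1A/B.4.2 and above it in the other 3 silenced conditions. A sum follows its most abundant genes. The 7 markers were called both ways in every silenced condition, where 63.9% to 76.1% of all genes were called (limma, adjusted p under 0.05). Lower and higher calls were 4 and 2 in shARID1A.2, with a median log2 difference of −0.40. They were 2 and 4 in shARID1A.4 (0.46) and 5 and 1 in shARID1B.2 (−0.33). In shARID1B.3 they were 4 and 3 (−0.24), in shARID1A/B.2.3 3 and 4 (0.12) and in shARID1A/B.4.2 4 and 2 (−0.53). Of the other cell types listed, the 6 fibroblast genes were above 0 as well, with a summed level of 35281 to 35848 in Control, 12269 to 13493 in shARID1A.2, 13445 to 13673 in shARID1A.4, 32067 to 33473 in shARID1B.2, 29044 to 30684 in shARID1B.3, 19414 to 19748 in shARID1A/B.2.3 and 14507 to 15144 in shARID1A/B.4.2. Of the 4 blood genes, PTPRC had 399 to 426 in Control and was lower in all 6 silenced conditions, down to 57.3 to 63.2 in shARID1A/B.2.3, while CD68 stayed at or below 47.4, CD3E at or below 8.5 and HBB at or below 1 in every library. Of the 4 epithelial genes, EPCAM had 60.6 to 75.2 in Control and was higher in 5 conditions, up to 207 to 227 in shARID1A.2, while CDH1 stayed at or below 5.41, KRT14 at or below 1.75 and KRT5 was at 0. The part of these marker levels in the results was not tested. In bulk RNA, fewer cells in a phase of the cycle and less RNA per cell cannot be told apart.

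Against Control, most of the 9 tested genes were lower in every silenced condition. CCND1, CCND3, CCNE2, CDK2, RB1 and RBL1 fell in all 6 conditions. The 3 others split the conditions: CCNE1 rose in 3, CDK4 rose in 2 and fell in 3, and CDK6 fell in 4 and rose in 1. In shARID1A.2, 8 genes were lower and 1 was higher, where 76.1% of the 18584 genes tested were called in either direction, 38.2% lower and 37.9% higher (limma, adjusted p under 0.05). In shARID1A.4, 6 were lower and 2 higher, beside 73.6% of all genes called, 36.6% lower and 37% higher. In shARID1B.2, 8 were lower and 1 higher, beside 65.6% called, 34% lower and 31.6% higher. In shARID1B.3, 7 were lower and 1 higher, beside 63.9% called, 32% lower and 31.9% higher. In shARID1A/B.2.3, 6 were lower and 0 higher, beside 69.2% called, 34% lower and 35.2% higher, and in shARID1A/B.4.2, 8 were lower and 1 higher, beside 71.2% called, 36.1% lower and 35.1% higher. All 9 genes were thus called in shARID1A.2, shARID1B.2 and shARID1A/B.4.2, 8 in shARID1A.4 and in shARID1B.3, and 6 in shARID1A/B.2.3. The share called was near that of all genes in shARID1A/B.2.3 and above it in the other silenced conditions. These shares had no test of their own. The share of lower calls was above that of all genes in each condition. The 3 genes not called in shARID1A/B.2.3 are CCNE1, CDK4 and CDK6, given below.

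Size separated the conditions more than the number of calls. The median log2 difference of the 9 genes was −1.23 in shARID1A.2, −0.79 in shARID1A.4, −0.58 in shARID1B.2, −0.34 in shARID1B.3, −0.43 in shARID1A/B.2.3 and −0.75 in shARID1A/B.4.2, where the median of all genes tested lay between 0.01 and 0.02. Falls larger than 1 on the log2 scale were found for 5 genes in shARID1A.2 (10.7% of all genes fell as much), 4 in shARID1A.4 (12%), 2 in shARID1B.2 (5.12%), 1 in shARID1B.3 (6.58%), 4 in shARID1A/B.2.3 (9.1%) and 3 in shARID1A/B.4.2 (8.14%). Of these, CCND1 in shARID1B.2 moved inside 1 when values were scaled to total reads (−0.94) or the upper quartile (−0.96), CCNE2 in shARID1B.3 with the upper quartile (−0.97), and CDK2 in shARID1A/B.4.2 under both (−0.82 and −0.84) and, by a small margin, with TMM, edgeR and DESeq2. A rise above 1 was found for CCNE1 in shARID1A.2 alone, where 14.1% of all genes rose as much. All 6 comparisons share the 3 Control libraries. The labels call the libraries biological triplicates without saying that they came from separate transductions, and p-values measure only the spread between these libraries.

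**Figure D2:**
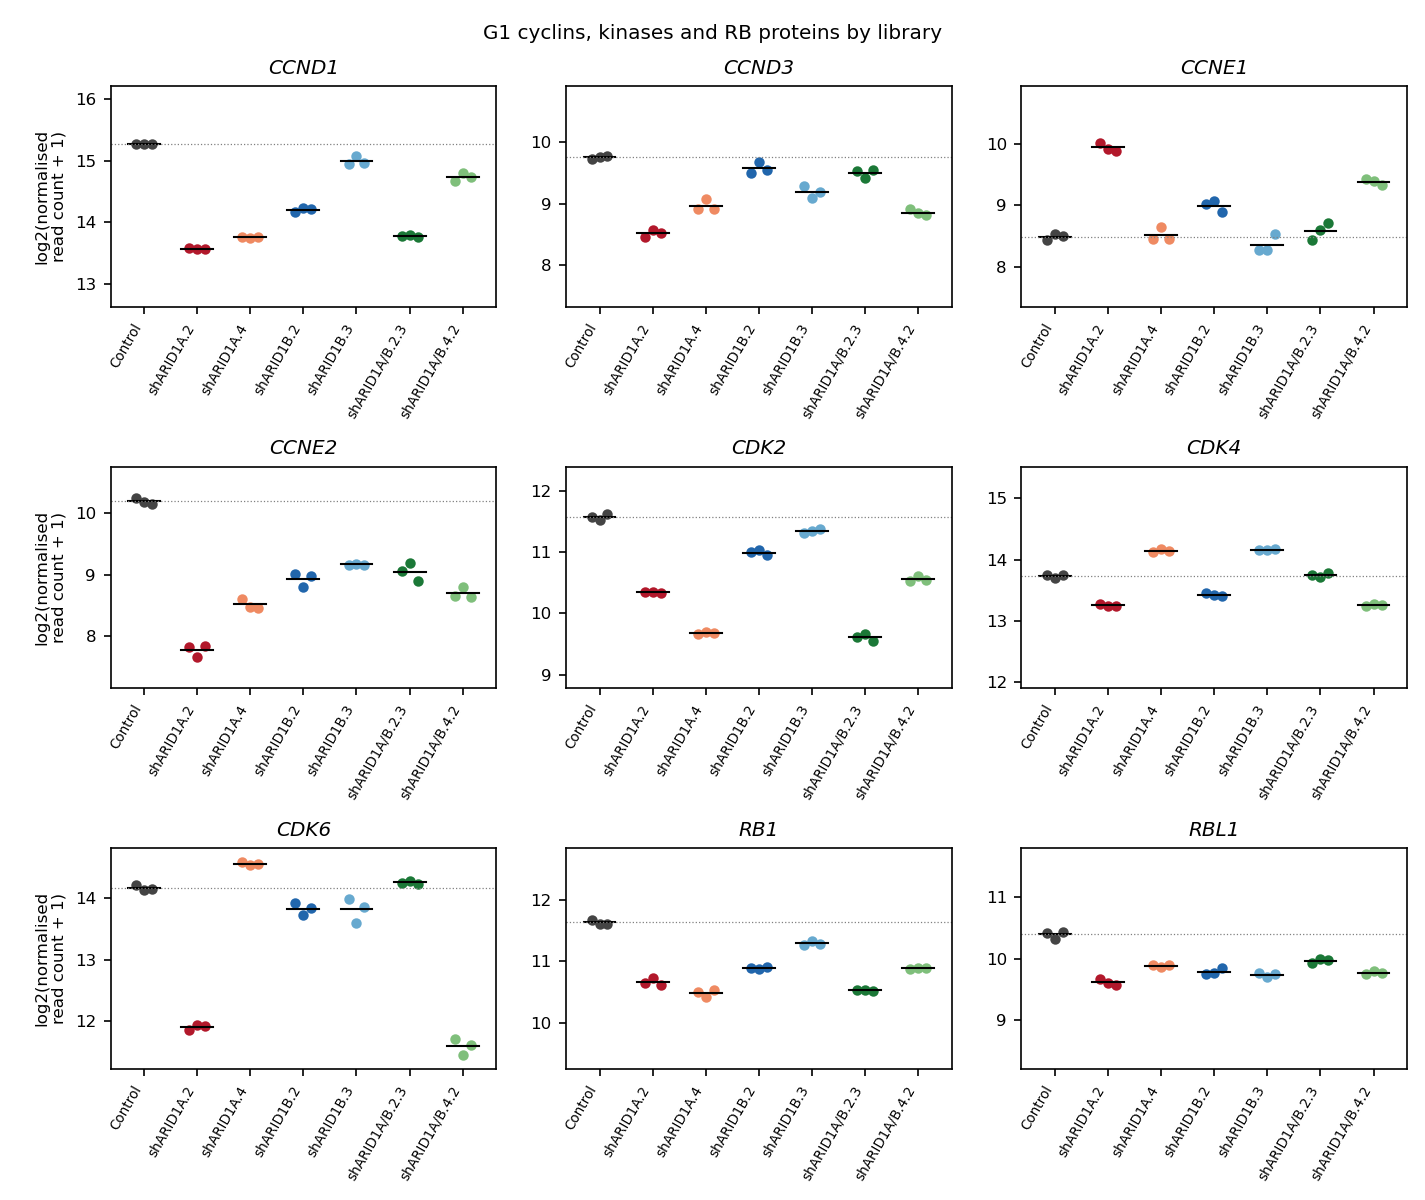
Each panel shows 1 of the 9 tested genes as log2(normalised read count + 1) (y axis) in the 7 labelled conditions (x axis). Points are libraries, bars are condition means of 3, the dotted line is the Control mean, and all panels span the same number of log2 units, so that the wide spread of CDK6 and CCNE2 and the narrow one of RBL1 can be compared by eye.

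The D-type cyclins opened the sequence. CCND1 (chr11:69641087-69654474 in GRCh38, plus strand), the main D-type cyclin of this line, had 39766, 39681 and 39769.6 normalised reads in Control. It had 12208, 12057 and 12111 in shARID1A.2 and 13802, 13741 and 13788 in shARID1A.4. The libraries labelled shARID1B held 18269.7, 19129 and 19087 for shARID1B.2 and 31460.0, 34505 and 32021 for shARID1B.3. No silenced library reached the lowest Control library. The libraries labelled shARID1A/B held 13993, 14163 and 13816 for shARID1A/B.2.3 and 26111, 28612 and 27159 for shARID1A/B.4.2. The 7 conditions formed an order without any overlap between neighbours: Control, shARID1B.3, shARID1A/B.4.2, shARID1B.2, shARID1A/B.2.3, shARID1A.4 and shARID1A.2. The log2 difference from Control (standard error 0.03 in each comparison) was −1.71 (adjusted p = 1.2e-24) in shARID1A.2, −1.53 (adjusted p = 1.5e-23) in shARID1A.4 and −1.51 (adjusted p = 3.5e-23) in shARID1A/B.2.3. It was −1.08 (adjusted p = 3.6e-20) in shARID1B.2, −0.54 (adjusted p = 1.6e-14) in shARID1A/B.4.2 and −0.28 (adjusted p = 5.9e-09) in shARID1B.3. CCND1 shares 497 exon bases with LTO1 on the other strand, whose mean over the libraries was 1301 against 22631 for CCND1. The kit keeps strand, but whether counting used it is not given, so reads in shared bases could belong to either gene here and wherever an overlapping gene is named below.

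CCND3, the D-type cyclin usual in blood cells (chr6:41934933-42050357, minus strand), was far less abundant. It had 849, 863 and 874 in Control, 351, 377 and 368 in shARID1A.2 and 479.7, 541 and 479 in shARID1A.4. It had 721, 821 and 749 in shARID1B.2 and 621, 545 and 585 in shARID1B.3. The libraries of shARID1A/B.2.3 held 735, 686 and 746 and those of shARID1A/B.4.2 held 479, 459.6 and 447. All silenced libraries lay below the 3 of Control, but shARID1B.2 overlapped shARID1A/B.2.3, and shARID1A.4 overlapped shARID1A/B.4.2. The log2 difference was −1.24 (adjusted p = 1.1e-15) in shARID1A.2, −0.90 (adjusted p = 8.4e-13) in shARID1A/B.4.2, −0.79 (adjusted p = 9.4e-12) in shARID1A.4, −0.56 (adjusted p = 8.1e-09) in shARID1B.3, −0.26 (adjusted p = 0.00046) in shARID1A/B.2.3 and −0.18 (adjusted p = 0.011) in shARID1B.2, with a standard error of 0.06. The smallest of these, in shARID1B.2, was lost when values were scaled to total reads (−0.04, adjusted p = 0.55) or to the upper quartile (−0.06, adjusted p = 0.39), and without shARID1B.2 replicate 1 (−0.14, adjusted p = 0.071). Under those scalings the median of all genes in shARID1B.2 moved to 0.15 and 0.13, and CCND3 lay 0.19 below it on the log2 scale in either case.

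CCND2, the remaining D-type cyclin (chr12:4273772-4305350, plus strand), was close to undetected and had no test. It had 0 reads in each Control library, which allows up to 3 reads among 30579746 to 34973565 (counting error only). It also had 0 reads in the 3 libraries of shARID1B.2. In all it reached 8 reads in shARID1A.2, with 1, 4 and 3 in its libraries, 5 in shARID1A.4, 4 in shARID1A/B.4.2, 3 in shARID1A/B.2.3 and 1 in shARID1B.3. No fold is given, since 4 reads is the largest count in any library. CCND2 shares 989 exon bases with AC008012.1 on the same strand, whose mean over the libraries was 3.58 normalised reads against 0.98 for CCND2.

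The kinases of the D-type cyclins behaved differently from the cyclins. CDK4 (chr12:57747727-57756013, minus strand) had 13703, 13252 and 13704 normalised reads in Control. It had 9917, 9723 and 9745 in shARID1A.2, 11278, 11006 and 10826 in shARID1B.2 and 9716, 9933 and 9777 in shARID1A/B.4.2, all below Control. It had 17929.9, 18452 and 18037 in shARID1A.4 and 18305, 18255 and 18484 in shARID1B.3, all above Control. The libraries of shARID1A/B.2.3, with 13774, 13438 and 14018, overlapped those of Control. CDK4 therefore went both ways within each of the labels shARID1A and shARID1B. The log2 difference (standard error 0.02) was −0.47 (adjusted p = 2.7e-16) in shARID1A.2, −0.47 (adjusted p = 4.1e-16) in shARID1A/B.4.2 and −0.30 (adjusted p = 4.9e-12) in shARID1B.2. It was 0.44 (adjusted p = 2.8e-15) in shARID1B.3 and 0.42 (adjusted p = 2.5e-15) in shARID1A.4. In shARID1A/B.2.3 it was 0.02 (adjusted p = 0.4), with a 95% interval of −0.02 to 0.06, and it was called there when values were scaled to total reads (0.05) or the upper quartile (0.09), scalings under which the median of all genes moved to 0.05 and 0.09. TSPAN31 shares 1369 exon bases with CDK4 on the other strand, at a mean of 528 against 13489 for CDK4.

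MYCN, on the marker list, moved with CDK4 in most conditions. Its log2 difference was −0.40 in shARID1A.2, −0.63 in shARID1B.2 and −0.53 in shARID1A/B.4.2, where CDK4 fell. It was 1.77 in shARID1A.4 and 0.36 in shARID1B.3, where CDK4 rose, and 0.83 in shARID1A/B.2.3, where CDK4 was not called. The part of MYCN in the CDK4 values was not tested. MYC proteins are known to bind the letters CACGTG, a form of the E-box, and the CDK4 promoter in RefSeq (GRCh38.p14, chr12:57752311-57752560, minus strand, the 250 bases before the start) is shown because it holds 3 of them, 216, 196 and 101 bases before the start, in capitals.
CDK4: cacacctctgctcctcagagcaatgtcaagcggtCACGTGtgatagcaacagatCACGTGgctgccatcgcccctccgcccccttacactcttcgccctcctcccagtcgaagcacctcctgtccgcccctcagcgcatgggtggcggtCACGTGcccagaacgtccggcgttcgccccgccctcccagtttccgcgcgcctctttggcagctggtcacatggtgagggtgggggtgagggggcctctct
The motif reads the same on both strands and was found in 6.34% of all 35116 promoter windows of this length, 1 or more per window. A match is a description of the letters and not of binding. The start used is that of RefSeq, and this window lies inside the gene span given above. On the minus strand that span starts at 57756013, and the bases before it were not searched.

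CDK6 (chr7:92604921-92836594, minus strand), the other kinase of the D-type cyclins, had the largest spread of all over the conditions. It had 19136, 18093 and 18310.3 normalised reads in Control. It had 3714, 3906 and 3859.8 in shARID1A.2 and 3365, 2794 and 3122 in shARID1A/B.4.2, which is 20.7% and 16.7% of the Control mean. In contrast, it had 24724, 23848 and 24196 in shARID1A.4 and 19544, 20045 and 19360.1 in shARID1A/B.2.3, above every Control library. Thus each of the labels shARID1A and shARID1A/B holds 1 condition with a deep loss of CDK6 and 1 with none. The libraries labelled shARID1B, with 15546, 13523 and 14742 in shARID1B.2 and 16278, 12474 and 14896 in shARID1B.3, lay between these levels and overlapped each other. The log2 difference (standard error 0.07) was −2.27 (adjusted p = 4.6e-20) in shARID1A.2 and −2.58 (adjusted p = 5.2e-21) in shARID1A/B.4.2. It was 0.39 (adjusted p = 9.9e-06) in shARID1A.4, −0.34 (adjusted p = 6.5e-05) in shARID1B.2 and −0.36 (adjusted p = 4.5e-05) in shARID1B.3. In shARID1A/B.2.3 it was 0.09 (adjusted p = 0.25), with a 95% interval of −0.05 to 0.22. That last value was called with upper-quartile scaling (0.16, adjusted p = 0.034) and when only the 6 libraries compared entered the fit (0.09, adjusted p = 0.0062).

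**Figure D3:**
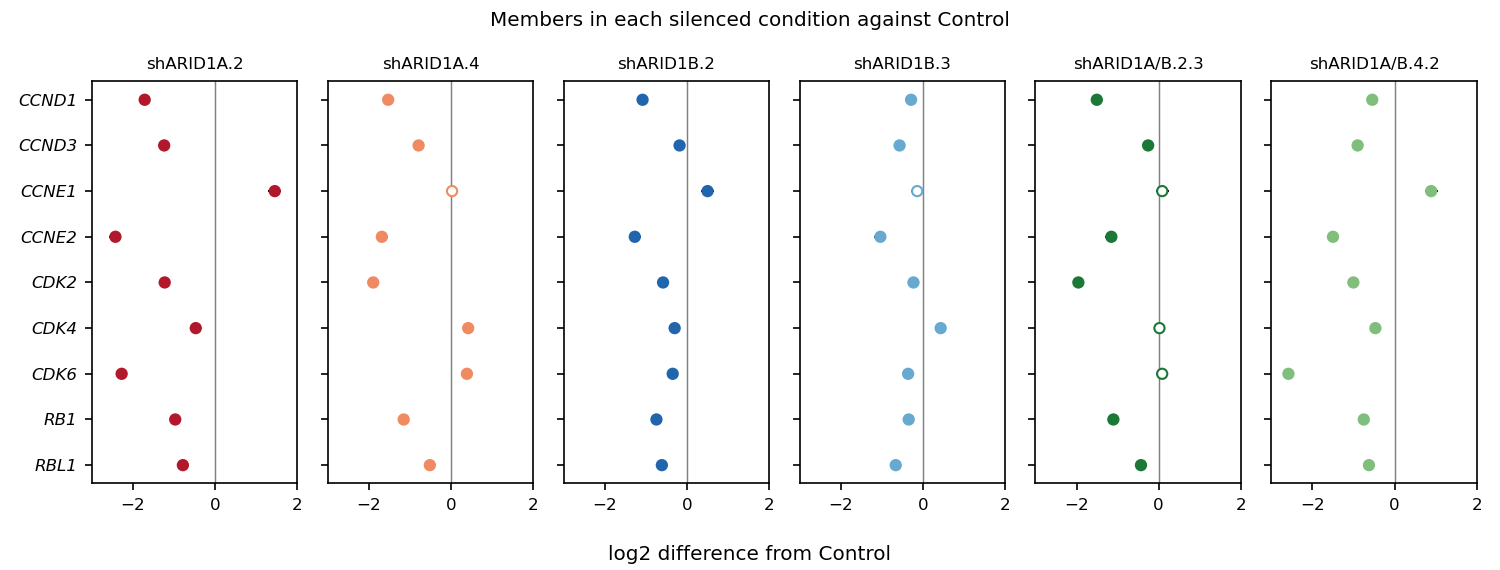
Log2 difference from Control (x axis) of the 9 tested genes (y axis), 1 panel per silenced condition, with 95% intervals as bars, mostly hidden by the points. Filled points were called at adjusted p under 0.05 and open points were not; CDK6 lies at −2.27 and −2.58 in shARID1A.2 and shARID1A/B.4.2, and CCNE1 is the gene on the right of 0 in shARID1A.2, shARID1B.2 and shARID1A/B.4.2.

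The E-type cyclins moved apart. CCNE1 (chr19:29811898-29824308, plus strand) had 346, 368 and 360.5 normalised reads in Control. It had 1037, 970.3 and 949 in shARID1A.2, 519.9, 536 and 473 in shARID1B.2 and 685, 669.7 and 643 in shARID1A/B.4.2. These 3 conditions lay above Control without overlap. It had 349.6, 398 and 350.3 in shARID1A.4, 308, 307 and 368 in shARID1B.3 and 343, 386 and 417 in shARID1A/B.2.3, all overlapping Control. The log2 difference (standard error 0.08) was 1.46 (adjusted p = 5.8e-15) in shARID1A.2, 0.89 (adjusted p = 1.1e-10) in shARID1A/B.4.2 and 0.51 (adjusted p = 2.2e-06) in shARID1B.2. It was 0.09 (adjusted p = 0.31) in shARID1A/B.2.3, with a 95% interval of −0.07 to 0.24, and 0.03 (adjusted p = 0.75) in shARID1A.4, with an interval of −0.13 to 0.18. In shARID1B.3 it was −0.13 (adjusted p = 0.12), with an interval of −0.29 to 0.02, and without shARID1B.3 replicate 3 it became −0.22 (adjusted p = 0.014). The value in shARID1A.4 changed sign, to −0.03, without shARID1A.4 replicate 2.

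CCNE2 (chr8:94879770-94896678, minus strand), the second E-type cyclin, fell in every silenced condition. It had 1219, 1161 and 1142 in Control, 226, 201 and 227 in shARID1A.2 and 388, 356 and 352 in shARID1A.4. It had 516, 446 and 502 in shARID1B.2 and 572, 579.6 and 569 in shARID1B.3. It had 531, 580.4 and 477 in shARID1A/B.2.3 and 403, 443 and 399 in shARID1A/B.4.2. The highest silenced library was far below the lowest of Control, and shARID1B.3, shARID1A/B.2.3 and shARID1B.2 overlapped as neighbours in that order. CCNE2 was the gene with the lowest log2 difference of the 9 in shARID1A.2, at −2.43 (adjusted p = 4.3e-20), in shARID1B.2, at −1.27 (adjusted p = 4.6e-14), and in shARID1B.3, at −1.03 (adjusted p = 2.9e-12), with a standard error of 0.07. It was −1.68 (adjusted p = 7.5e-17) in shARID1A.4, −1.50 (adjusted p = 1e-15) in shARID1A/B.4.2 and −1.15 (adjusted p = 2e-13) in shARID1A/B.2.3, so that CCNE2 was the only one of the 9 genes with a fall beyond 1 in all 6 conditions, though not with upper-quartile scaling, which left −0.97 in shARID1B.3. INTS8 shares 1629 exon bases with CCNE2 on the other strand and had a mean of 1896, above the 538 of CCNE2.

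The balance between the E-type cyclins shifted in all silenced conditions. Per kilobase of exon, CCNE1 was 0.527 ± 0.0321 of CCNE2 in Control (SD, n = 3 libraries, as for each ratio below). The ratio was 7.81 ± 0.570 in shARID1A.2, 2.77 ± 0.165 in shARID1A/B.4.2, 1.81 ± 0.233 in shARID1B.2, 1.73 ± 0.191 in shARID1A.4, 1.257 ± 0.219 in shARID1A/B.2.3 and 0.985 ± 0.113 in shARID1B.3. CCNE2 thus had the higher value per length in Control, and CCNE1 in 5 of the silenced conditions, while in shARID1B.3 the libraries ran from 0.913 to 1.11. The lengths are all annotated exon bases, 2550 for CCNE1 and 4397 for CCNE2, and not those of the transcripts made. Before division by length, CCNE1 had a mean of 382 against 529 for CCNE2 in shARID1A/B.2.3. In shARID1A.4 the means were 366 and 365, so the crossing depends on the lengths there. In shARID1B.2 they were 510 and 488 with overlapping libraries, and CCNE2 was the higher in replicate 3 (502 against 473 for CCNE1). CCNE1 was higher without the lengths in shARID1A.2 (985 against 218) and in shARID1A/B.4.2 (666 against 415). For the kinases of the D-type cyclins, CDK6 per kilobase was 0.353 ± 0.00779 of CDK4 in Control, and libraries of shARID1A.4 (0.346 ± 0.0112), shARID1B.2 (0.342 ± 0.0212) and shARID1A/B.2.3 (0.370 ± 0.0145) overlapped that range. The ratio was 0.205 ± 0.0268 in shARID1B.3, 0.101 ± 0.00370 in shARID1A.2 and 0.0816 ± 0.00844 in shARID1A/B.4.2, all below Control. These ratios are descriptions and had no test of their own.

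**Figure D4:**
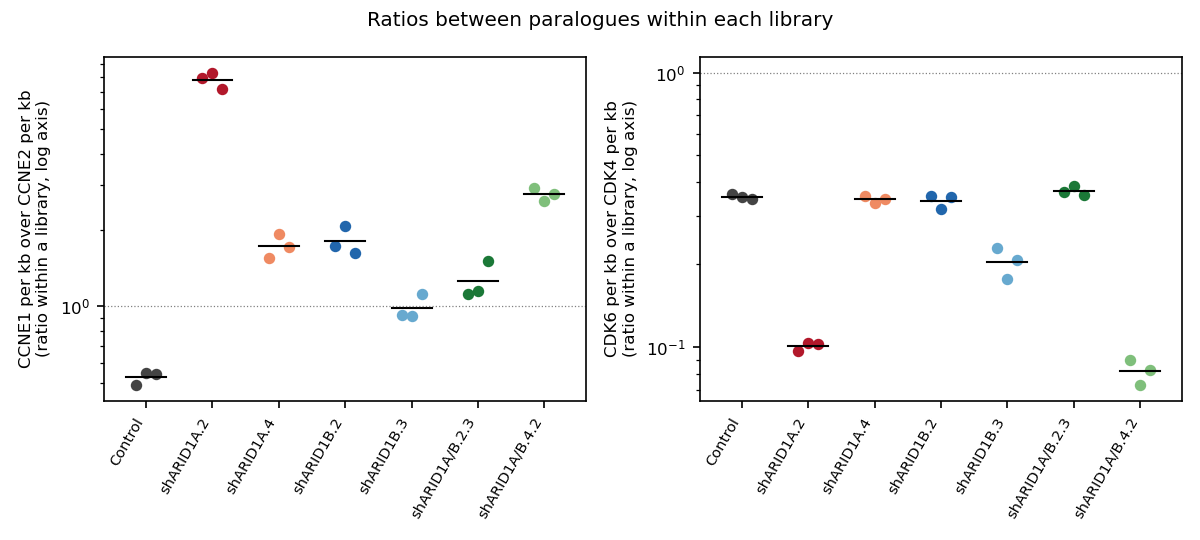
Ratios within each library of CCNE1 to CCNE2 (left) and of CDK6 to CDK4 (right), both per kilobase of exon and on log axes (y), in the 7 labelled conditions (x). Points are libraries, bars are means of 3 and the dotted line marks a ratio of 1; CCNE1 over CCNE2 is highest in shARID1A.2, and CDK6 over CDK4 is lowest in shARID1A.2 and shARID1A/B.4.2.

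CDK2 (chr12:55966769-55972784, plus strand), the kinase of the E-type cyclins, fell in all 6 conditions. It had 3039.7, 2935 and 3127 normalised reads in Control, 1299, 1303 and 1288 in shARID1A.2 and 805, 824 and 819 in shARID1A.4. It had 2034, 2084 and 1975 in shARID1B.2 and 2529.6, 2603 and 2652 in shARID1B.3. It had 782, 812 and 752 in shARID1A/B.2.3 and 1481, 1567 and 1492 in shARID1A/B.4.2. The lowest conditions, shARID1A/B.2.3 and shARID1A.4, overlapped each other and no other condition, and the rest did not overlap. CDK2 had the lowest log2 difference of the 9 genes in these 2 conditions, −1.96 (adjusted p = 4.3e-24) and −1.89 (adjusted p = 5e-24), with a standard error of 0.03. The difference was −1.23 (adjusted p = 1.9e-20) in shARID1A.2, −1.003 (adjusted p = 1.6e-18) in shARID1A/B.4.2, −0.58 (adjusted p = 1.6e-13) in shARID1B.2 and −0.23 (adjusted p = 2.9e-06) in shARID1B.3. The 2 conditions in which CDK2 fell most are those in which all CDK6 libraries were above Control. CDK6 was called higher in shARID1A.4 (0.39) alone, and its 0.09 in shARID1A/B.2.3 was not called (limma, adjusted p = 0.25).

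The pocket proteins, which the kinases act on, fell in all 6 conditions. RB1 (chr13:48303726-48599436, plus strand) had 3258, 3125 and 3124 normalised reads in Control, 1598, 1692 and 1568 in shARID1A.2 and 1444, 1366 and 1474 in shARID1A.4. It had 1892, 1880.0 and 1919 in shARID1B.2 and 2447, 2559 and 2495 in shARID1B.3. It had 1479, 1485 and 1461 in shARID1A/B.2.3 and 1865, 1903 and 1886 in shARID1A/B.4.2. No silenced library reached Control, with shARID1B.3 nearest to it and shARID1A.4 and shARID1A/B.2.3 overlapping at the bottom. The log2 difference (standard error 0.03) was −1.15 (adjusted p = 2.3e-20) in shARID1A.4, −1.10 (adjusted p = 7.9e-20) in shARID1A/B.2.3 and −0.97 (adjusted p = 6.8e-19) in shARID1A.2. It was −0.75 (adjusted p = 1.8e-16) in shARID1A/B.4.2, −0.74 (adjusted p = 4e-16) in shARID1B.2 and −0.34 (adjusted p = 1.2e-09) in shARID1B.3.

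RBL1 (p107; chr20:36996349-37095995, minus strand), which prefers the repressor E2Fs, had the narrowest range over the silenced conditions. It had 1372, 1284 and 1388 in Control, 815, 776 and 758 in shARID1A.2 and 949, 929 and 954 in shARID1A.4. It had 860.4, 874 and 917 in shARID1B.2 and 871, 829 and 860.0 in shARID1B.3. It had 975, 1017 and 1007 in shARID1A/B.2.3 and 861, 887 and 875 in shARID1A/B.4.2. All lay below Control, and shARID1B.2, shARID1A/B.4.2 and shARID1B.3 overlapped as neighbours. The log2 difference ran from −0.78 (adjusted p = 2.9e-15) in shARID1A.2 to −0.43 (adjusted p = 4.5e-10) in shARID1A/B.2.3, with −0.66 in shARID1B.3, −0.62 in shARID1A/B.4.2, −0.61 in shARID1B.2 and −0.51 in shARID1A.4, all called. Per kilobase, RB1 was 2.17 ± 0.0859 times RBL1 in Control, 2.71 ± 0.129 in shARID1B.3 and 1.36 ± 0.0330 in shARID1A/B.2.3, the highest and lowest of the 7 conditions.

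RBL1 is a known E2F target, and its promoter in RefSeq (GRCh38.p14, chr20:37095998-37096247, minus strand, the 250 bases before the start) is shown because it was the only window of these genes with the E2F letters. The letters searched were TTTCCCGC, TTTCGCGC, TTTGCCGC and TTTGGCGC on both strands, and the matches, TTTCGCGC 26 bases and TTTGGCGC 16 bases before the start, are in capitals.
RBL1: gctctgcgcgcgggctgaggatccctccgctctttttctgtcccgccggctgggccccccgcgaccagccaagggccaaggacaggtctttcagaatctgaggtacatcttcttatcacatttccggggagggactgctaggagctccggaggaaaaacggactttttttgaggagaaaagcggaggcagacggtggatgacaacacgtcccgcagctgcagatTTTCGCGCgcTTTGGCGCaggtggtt
These matches do not overlap each other, and such letters were found in 2.79% of all 35116 windows. Of the 10 genes, 6 had windows in the RefSeq table, 9 windows in all (CCND3, CCNE1, CDK4, CDK6, RB1 and RBL1), and CACGTG was found in that of CDK4 alone. The only RB1 window, chr13:48476200-48476449, lies inside the gene, which starts at 48303726 on the plus strand. The CDK4 window also lies inside its gene, which starts at 57756013 on the minus strand. So do all CCND3 windows, in a gene that starts at 42050357 on the minus strand. The bases before these annotated starts were not searched. Where no match was found, it says only that these letters are not in that window.

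Per kilobase of exon, the genes spanned a wide range of levels in Control. CCND1 led with 8228 ± 10.4 normalised reads per kilobase (SD, n = 3), followed by CDK4 with 4278 ± 82.3, CDK6 with 1510 ± 44.9, CDK2 with 779 ± 24.8, RB1 with 491 ± 12.0, CCNE2 with 267 ± 9.15, RBL1 with 226 ± 9.39, CCND3 with 149 ± 2.14 and CCNE1 with 141 ± 4.32. No neighbours in this order overlapped in their 3 libraries. The order changed with silencing. CDK4 passed CCND1 in shARID1A.2 (3092 ± 33.4 against 2510 ± 15.8), in shARID1A.4 (5726 ± 87.1 against 2852 ± 6.61) and in shARID1A/B.2.3 (4338 ± 92.0 against 2897 ± 35.9). CCND1 stayed above CDK4 in shARID1B.2 (3898 ± 100.3 against 3484 ± 72.0), shARID1B.3 (6762 ± 335 against 5792 ± 37.9) and shARID1A/B.4.2 (5651 ± 260.0 against 3096 ± 35.3). In shARID1A.2, CCNE1, the lowest tested gene of Control, stood behind CDK4 and CCND1 alone with 386 ± 18.0, above CDK2 with 333 ± 1.92 and CDK6 with 312 ± 8.15.

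**Figure D5:**
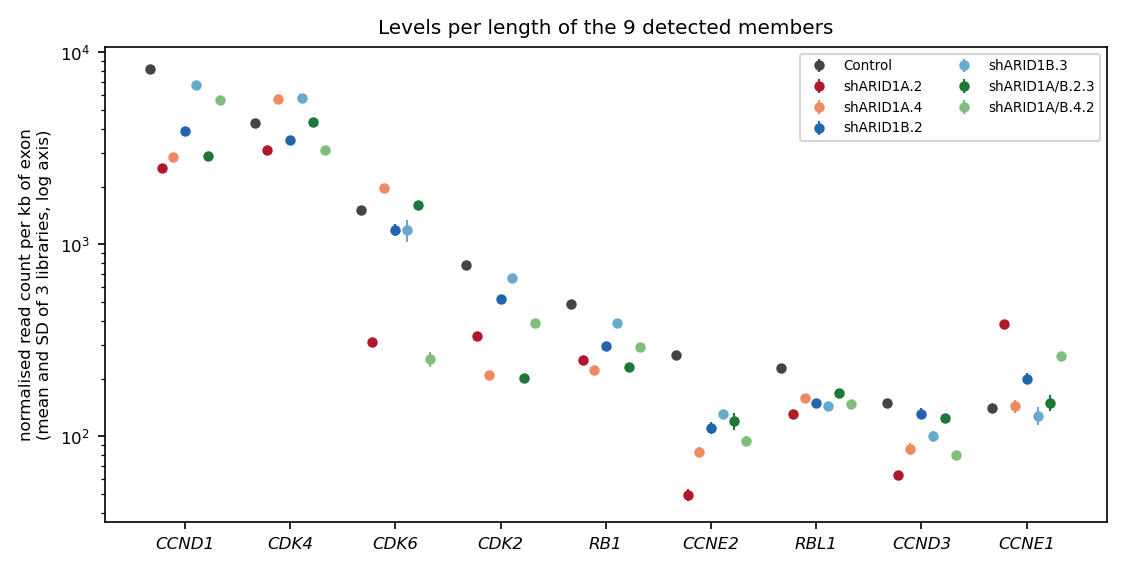
Normalised read count per kilobase of exon (y, log axis) of the 9 tested genes (x, ordered by their Control level), with the mean and SD of 3 libraries for each labelled condition. CCND1 and CDK4 lie highest, CDK6 drops to 312 and 252 in shARID1A.2 and shARID1A/B.4.2, and CCNE2 is lowest in shARID1A.2, at 49.6.

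The conditions that share a label were compared directly, since CDK4, CDK6 and CCNE1 had differed between them. Between shARID1A.2 and shARID1A.4 all 9 genes were called, where 75.8% of all genes were. The log2 difference of shARID1A.2 from shARID1A.4 was −2.66 (adjusted p = 1.7e-21) for CDK6, 1.43 (adjusted p = 7.8e-15) for CCNE1 and −0.89 (adjusted p = 5.8e-22) for CDK4. The other genes lay between −0.74 (CCNE2) and 0.67 (CDK2), with CCND1 at −0.18 and RB1 at 0.18. The value of CCND1 was lost when values were scaled to total reads (−0.03, adjusted p = 0.31). Thus CCNE2, CCND1, CCND3 and RBL1 were lower in shARID1A.2, and CDK2 and RB1 in shARID1A.4.

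Between shARID1B.2 and shARID1B.3, 7 of the 9 genes were called, where 66% of all genes were. CCND1 was lower in shARID1B.2 at −0.79 (adjusted p = 1e-17) and CDK4 by −0.73 (adjusted p = 6e-20), and RB1, CDK2 and CCNE2 were lower there as well, at −0.40, −0.35 and −0.24. CCNE1 was higher in shARID1B.2 at 0.64 (adjusted p = 4.8e-08), as was CCND3 at 0.39. CDK6 differed by 0.01 (adjusted p = 0.89), with a 95% interval of −0.12 to 0.15, and RBL1 by 0.05 (adjusted p = 0.27), with −0.03 to 0.13. Scaled to total reads, CCNE2 was no longer called (−0.13, adjusted p = 0.11) and RBL1 was (0.16, adjusted p = 0.0012).

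Between shARID1A/B.2.3 and shARID1A/B.4.2 all 9 genes were called, where 74.9% of all genes were. CDK6 was higher in shARID1A/B.2.3 by 2.67 (adjusted p = 1.9e-21), and so were CCND3 at 0.64, CDK4 at 0.49, CCNE2 at 0.35 and RBL1 at 0.19. CCND1 was lower there at −0.96 (adjusted p = 1.2e-19), and so were CDK2 at −0.95, CCNE1 at −0.80 and RB1 at −0.35. RBL1 was lost when values were scaled to total reads (0.04, adjusted p = 0.36).

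After these values were seen, shARID1A.2 was compared with shARID1A/B.4.2 and shARID1A.4 with shARID1A/B.2.3, conditions that differ in label. The pairs were set with the values of the members known, and the calls and intervals do not allow for that choice. In shARID1A.2, ARID1A was at 34% of the Control mean against 86.2% in shARID1A/B.4.2, while ARID1B was low in both. CDK4 differed by −0.00 (adjusted p = 0.95), with a 95% interval of −0.04 to 0.04, and changed sign under several settings. The other 8 genes were called, where 53.5% of all genes were, with CCND1 at −1.17, CCNE2 at −0.93, CCNE1 at 0.56, CCND3 at −0.34 and CDK6 at 0.31. In shARID1A.4, ARID1A was lower than in shARID1A/B.2.3 (log2 difference −1.33), while ARID1B was low in both. Between shARID1A.4 and shARID1A/B.2.3, 4 genes were called, where 55.5% of all genes were: CCND3 at −0.53, CCNE2 at −0.53, CDK4 at 0.40 and CDK6 at 0.30. CCND1 differed by −0.02 (adjusted p = 0.55), with an interval of −0.08 to 0.04, CDK2 by 0.06 (−0.01 to 0.13), RB1 by −0.05 (−0.11 to 0.02), RBL1 by −0.08 (−0.16 to −0.00) and CCNE1 by −0.06 (−0.21 to 0.10). RBL1 was called there when values were scaled to total reads (−0.095, adjusted p = 0.047), as was CDK2 without shARID1A/B.2.3 replicate 2 (0.090, adjusted p = 0.042).

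By label, with both conditions of each weighted equally, the libraries labelled shARID1A were lower than those labelled shARID1B for 7 of the 9 genes and higher for CCNE1 (0.56), where 67.3% of all genes were called, 32.8% lower and 34.6% higher. The largest differences were −1.16 (adjusted p = 2.3e-22) for CDK2, −0.94 (adjusted p = 6.1e-22) for CCND1 and −0.90 (adjusted p = 3.1e-14) for CCNE2, and RBL1 was at −0.01 (adjusted p = 0.65). Against shARID1A/B, the libraries labelled shARID1A were lower for 6 genes, led by CCNE2 (−0.73) and CCND1 (−0.60), and higher for CDK6 (0.31), CCNE1 (0.25) and CDK4 (0.20), where 59.2% of all genes were called, 28.7% lower and 30.5% higher. Against shARID1B, those labelled shARID1A/B were lower for 7 genes, led by CDK2 (−1.08) and CDK6 (−0.90), and higher for CCNE1 (0.30) and RBL1 (0.11), where 70.2% were called, 35% lower and 35.1% higher. When the 6 libraries of a label were instead fitted as 1 group, so that the spread included the difference between its conditions, only 5, 1 and 2 genes were called in these comparisons. In the second of them the gene called was CCNE2.

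The other genes of the pathway were read as 5 lists, against the shares of all genes called lower, which were 38.2% in shARID1A.2, 36.6% in shARID1A.4, 34% in shARID1B.2, 32% in shARID1B.3, 34% in shARID1A/B.2.3 and 36.1% in shARID1A/B.4.2, with 31.6% to 37.9% higher. Of the 16 E2F-regulated S-phase genes, all 16 were lower in shARID1A.2, shARID1A.4, shARID1B.2, shARID1A/B.2.3 and shARID1A/B.4.2, with medians of −1.29, −1.20, −0.57, −1.30 and −1.20. In shARID1B.3, 10 were lower, 3 higher and 3 not called, with a median of −0.13. TYMS, which makes thymidylate, ran from −2.28 in shARID1A.4 to −0.28 in shARID1B.3, and CDC6, which loads the MCM helicase, from −1.85 in shARID1A/B.2.3 to −0.09 in shARID1B.3. Of the 11 E2F and DP factors with RBL2, 7 were lower and 3 higher in shARID1A.2, 6 and 4 in shARID1A.4, 8 and 2 in shARID1B.2, 2 and 5 in shARID1B.3, 6 and 4 in shARID1A/B.2.3, and 8 and 3 in shARID1A/B.4.2. E2F2, an activator, was lower in all 6, from −1.49 in shARID1A/B.2.3 to −0.18 in shARID1B.3, and E2F8, a repressor, in 5, with −0.15 (adjusted p = 0.17) in shARID1B.3. Of the 6 genes of the DREAM and MuvB list, 5 were lower in each condition but shARID1B.3, where 3 were. In shARID1B.2 and in shARID1B.3, 1 was higher. LIN52 and LIN9 were lower in all 6 conditions, at −1.25 and −0.90 in shARID1A/B.4.2 and −0.20 and −0.17 in shARID1B.3.

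The inhibitors of the kinases were called in both directions in 5 of the 6 conditions, as were all genes. Of the 7 INK4 and CIP/KIP genes, 4 were lower and 3 higher in shARID1A.2, 4 and 2 in shARID1A.4, 5 and 0 in shARID1B.2, 2 and 3 in shARID1B.3, 4 and 3 in shARID1A/B.2.3, and 3 and 1 in shARID1A/B.4.2. CDKN1C, a CIP/KIP inhibitor, was lower in 5 conditions, from −2.29 (adjusted p = 5.4e-14) in shARID1A.4, and stood at −0.02 (adjusted p = 0.91) in shARID1A/B.4.2. CDKN2B, an INK4 inhibitor of CDK4 and CDK6, was higher in 4, with 1.76 (adjusted p = 0.00011) in shARID1A/B.4.2, and stood at −0.22 (adjusted p = 0.61) in shARID1B.2. Of the 11 genes for CDK activation and for the turnover of G1 cyclins and p27, 7 were lower and 4 higher in shARID1A.2, 4 and 3 in shARID1A.4, 7 and 3 in shARID1B.2, 4 and 4 in shARID1B.3, 5 and 4 in shARID1A/B.2.3, and 7 and 4 in shARID1A/B.4.2. Beside 63.9% to 76.1% of all genes called, the counts of these 2 lists are given as a description only. SKP2, which marks p27 for degradation, had −2.08 in shARID1A/B.2.3 and −1.73 in shARID1A.4, the conditions with the lowest CDK2, against −0.46 in shARID1A.2 and 0.20 in shARID1B.3, all called. CDC25A, the phosphatase that activates CDK2, was lower in all 6, from −0.96 in shARID1A.2 to −0.14 in shARID1B.3.

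Among the members, CDK2 and RB1 had the most similar pattern over the 7 condition means of log2(value + 1), with a Pearson r of 0.937, followed by CCND1 and RB1 with 0.925. The E-type cyclin CCNE1 ran against both kinases of the D-type cyclins, with r = −0.875 for CDK6 and −0.859 for CDK4. Over 13666 genes with a mean of at least 50, the pattern most like that of CDK2 was that of STMN1 (r = 0.998), followed by KIF23 and HMGB2 (0.993 and 0.991). CDK6 was most like DCX (0.996), PRPSAP1 and ARIH2, CDK4 most like DNAJC13 (0.995), BAX and RBM17, and RB1 most like SRGAP2 (0.995), SASS6 and RHOU. CCND1 was most like SNRNP40 (0.993), SDC1 and NAA40, CCND3 most like LPP (0.981), TMEM108 and PXDN, and CCNE1 most like TUBG2 (0.990), KIAA1109 and TMEM161B-AS1. CCNE2 was most like HS3ST3A1 (0.988), TAGLN2 and CREB5, and RBL1 most like ABHD5 (0.990), NR1D2 and HCFC2. With 7 points that share their libraries, and with the best of 13666 genes chosen each time, these values are a description.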

How the data were processed

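RNA was measured in 21 SK-N-BE(2) libraries made with a stranded mRNA kit. The authors deposited 1 signal per gene and library, reads divided by a size factor (0.841 to 1.29). Whole reads were recovered for 100% of values within 0.1 read. Submitters' processing notes name STAR 2.5.3a, RSEM 1.3.0, DESeq2 1.26.0 and GRCh38. The annotation release is not given in the sources used here, and coordinates and exon lengths are from GENCODE 29 (58541 of 60728 identifiers matched without version). The authors' 3 tables of comparisons with the control hold fold changes and p-values and were not used.

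The test was limma 3.58.1 with a trend on log2(value + 1), in R 4.3.3, over 18584 genes kept by the edgeR 4.0.16 filter on recovered reads. All 21 libraries entered as 7 conditions, and p-values were adjusted by Benjamini-Hochberg over all genes. A fold on this scale understates the change of low genes. Alternatives were edgeR's quasi-likelihood test, DESeq2 1.42.0, other scalings (total reads, TMM, upper quartile), pseudocounts of 0.5 and 5, no filter (35892 genes), at least 10 reads in every library (14637 genes), 4 labelled groups, only the libraries compared, replicate blocks and each library left out. Replicates differed by more than sampling noise in all 21 pairs (chi-square per degree of freedom 1.55 to 4.26). Intervals cover the spread between libraries at a 95% level.

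Genes named are the 10 members, ARID1A and ARID1B, the 3 genes most like each member, and the 2 genes per pathway list with the largest mean change over the 6 silenced conditions. MYCN and the markers come from the marker lists, of which 1 gene is not reported here, while overlapping genes come from the annotation. Members and lists were chosen with earlier results of these data known.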

Additional observations from a re-analysis of the deposited data

Results flagged for a closer look

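For 3 of the 9 tested genes, the conditions that carry the same label differed in direction or by more than 1 on the log2 scale, by limma's test of the difference itself. CDK6 in shARID1A.2 differed from shARID1A.4 by −2.66 (adjusted p = 1.7e-21), lower in 3 of 3 libraries, and CDK6 in shARID1A/B.2.3 differed from shARID1A/B.4.2 by 2.67 (adjusted p = 1.9e-21), higher in 3 of 3. CCNE1 differed by 1.43 (adjusted p = 7.8e-15) between shARID1A.2 and shARID1A.4, having risen in the first and not been called in the second. CDK4 fell in shARID1A.2 and rose in shARID1A.4, a difference of −0.89 (adjusted p = 5.8e-22), and fell in shARID1B.2 and rose in shARID1B.3, a difference of −0.73 (adjusted p = 6e-20). Groups of 3 libraries were not read for a library that stands apart. The causes were not tested.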

How the results depend on the processing

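Of 2079 values of single genes under other settings of the main comparisons, 2022 kept their direction and their side of the threshold, 40 were no longer called, 7 were newly called and 10 changed sign, and of 231 counts of members called, 226 stayed within 1.5 times. Among the values for the comparisons and settings added after the data were seen, 299 kept direction and side, 2 were newly called and 5 changed sign. Outside the fit with 4 labelled groups, no log2 difference moved by more than 0.187. With the 6 libraries of a label as 1 group, 3 members were called in shARID1B.2 and 3 in shARID1B.3, and 5, 1 and 2 in shARID1A against shARID1B, shARID1A against shARID1A/B and shARID1A/B against shARID1B. In that fit a condition takes the value of its label, so that CDK4 and CDK6 became −0.024 and −0.94 in shARID1A.4 and −0.22 and −1.25 in shARID1A/B.2.3, CDK4 became 0.070 in shARID1B.2 and CCNE1 0.19 in shARID1B.3, none called. Calls over all genes dropped there to 6511 for shARID1A (from 14142 and 13682), 2791 for shARID1B (from 12189 and 11867) and 4498 for shARID1A/B (from 12862 and 13230), and from 12510 to 3980, from 11000 to 1731 and from 13039 to 5177 between labels. Upper-quartile scaling turned RBL1 in shARID1A against shARID1B to 0.030 and CDK4 in shARID1A.2 against shARID1A/B.4.2 to 0.018. Leaving out 1 library at a time, the latter ran from −0.011 to 0.0071, CDK6 in shARID1B.2 against shARID1B.3 from −0.095 to 0.097, CCNE1 in shARID1A.4 from −0.034 to 0.060 and CCNE1 in shARID1A.4 against shARID1A/B.2.3 from −0.13 to 0.0064. None of the values that changed sign under upper-quartile scaling or with 1 library left out was called before or after.

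Scaling to total reads moved the median of all genes, in shARID1A/B.4.2 from 0.016 to 0.200, the highest against Control. The share of calls that were lower then fell from 50.2% to 38.8% in shARID1A.2, from 51.9% to 37.0% in shARID1B.2 and from 50.7% to 35.2% in shARID1A/B.4.2, and with the upper quartile to 38.2%, 38.8% and 37.0%. Between conditions of a label it went from 49.3% to 39.2%, 50.04% to 39.2% and 50.4% to 61.4%. The replicate number as a block changed no call of a member. Same-numbered libraries did not deviate together (correlation of residuals −0.0879 to 0.0529, median 0.00333, 63 pairs), so the numbers were not taken as pairs.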
